A study of Rattus norvegicus with 12 samples.

Results

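The genes described here are 9 that belong to the antioxidant response run by Nrf2: its regulators Nfe2l2, Keap1 and Sqstm1, the glutathione synthesis genes Gclc and Gclm, and the target enzymes Hmox1, Nqo1, Txnrd1 and Srxn1. Every probe that carried 1 of these gene names on the array was taken, which gave 17 of 41012 probes, and each of the 17 was followed on all 12 arrays. The genes were named for their pathway with earlier results of these arrays known, and Gclm was selected on its measured signal, which swung between the times. The levels of Gclm are therefore given as a description, with no test.

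The tissue was the dorsal root ganglion, where sensory neurons that send their axons through the sciatic nerve have their cell bodies. Male Sprague-Dawley rats had a segment of 1 cm removed from the left sciatic nerve at the mid-thigh, and ganglia from lumbar levels 4 to 6 were taken 0.5, 3, 6 or 9 h later. The labels give 24 rats in groups of 6 and 3 arrays per time, without saying which rats' RNA went onto which array, so p-values measure only the spread between these samples, which may be technical. None of the groups was uninjured, so all animals had the same operation and the later times were set against 0.5 h and against each other.

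Nrf2, the product of Nfe2l2, is a transcription factor that Keap1 binds in the cytoplasm and passes to a ubiquitin ligase for destruction. Electrophiles and oxidants modify cysteines of Keap1, Nrf2 then accumulates, and it binds antioxidant response elements together with small Maf proteins. Its targets include the 2 subunits of glutamate-cysteine ligase, which carries out the rate-limiting step of glutathione synthesis, and enzymes that break down haem, reduce quinones and keep thioredoxin and peroxiredoxin reduced.

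Levels are log2 signals relative to the 75th percentile of the same array, so that 0 is the level of that percentile, and differences are later minus earlier time with their standard error (SE). A level of 1 probe cannot be set against that of another probe, since probes differ in how brightly they bind. A probe was kept if every array of some time showed it well above background, and all 17 were kept, among 34842 in all. The 9 later arrays detected 82.3 to 85.4% of probes above background and had a local background of 37 to 45 units, against 63.3 to 67.6% of probes and 64 to 86 units on the 0.5 h arrays. All 0.5 h arrays lay on 1 slide, all 3 h arrays on another and all 9 h arrays on another, so for these times slide and time cannot be told apart. The 6 h arrays were on 2 further slides, and these shared their scan day with the 3 h slide. All 13 sensory neuron markers stood well above background on each of the 12 arrays. The mean of 12 skeletal muscle markers ranged from -1.52 to 2.06 around its own average, between arrays of the same time as well as between times, and that of 5 fat cell markers from -1.36 to 1.25. The 7 neutrophil markers stood 1.65 and the 3 red blood cell markers 1.05 above their own averages on 6 h array number 3. The part of these cells in the values below was not tested, and in whole ganglia fewer cells of a type and less RNA per cell cannot be told apart.

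The first 30 bases of the 60-base probes on which the results turn, as the files give them, are shown with every G and C in capitals, because base composition set the probe of Gclm apart. The Gclm probe held 9 G or C bases of 60, which is 15% and as few as in 0.039% of all probes. Oxnad1 is shown as the other named gene with so few, and Gclc, Hmox1 and Srxn1 as members with more.

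Gclm, chr2:218915215-218915274, plus strand, 9 G or C of 60: atatatttCCtttatttttatGaGtaataG
Oxnad1, chr16:7574653-7574712, plus strand, 9 G or C of 60: attCataaaatttatGtttaCtGaatttat
Gclc, chr8:82761662-82761721, plus strand, 21 G or C of 60: GCCtCattttGaaatGCaatCaaattGCaa
Hmox1, chr19:13969336-13969395, plus strand, 33 G or C of 60: GCGatGGGtCCtCaCaCtCaGtttCCtGtt
Srxn1, probe A_42_P703664, chr3:142460556-142460615, plus strand, 33 G or C of 60: aCttCCtGGtGCtCaGaaGaCaCCtGCaGG
Srxn1, probe A_44_P470619, chr3:142460445-142468199, plus strand, 29 G or C of 60: aGCtCaGtttCCtGGGtttGttCtCCaaat

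Positions are on the rat assembly rn4, as the files list them. The second Srxn1 probe was mapped over 7755 bases, so its 60 bases come from separate stretches of the genome, and its accession matched no current gene in the RefSeq table, whereas that of the first did. No genome annotation of rn4 was used here, so whether a probe lies in coding or untranslated sequence is not given.

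Gclm, the modifier subunit of glutamate-cysteine ligase, had the widest swing in level among the 9 genes apart from 1 probe of Srxn1. Its level was -4.15, -3.94 and -4.01 on the 0.5 h arrays, -6.32, -6.22 and -6.63 at 3 h, -3.94, -4.05 and -3.56 at 6 h, and -5.80, -5.73 and -6.05 at 9 h. The 0.5 and 6 h arrays overlapped, and all of them lay above all arrays of 3 and 9 h. In signal units these were 110.8 to 125.6 at 0.5 h, 18.09 to 27.28 at 3 h, 111.7 to 182.1 at 6 h and 29.45 to 37.67 at 9 h, and the probe was well above background on every array. Against 0.5 h the mean differed by -2.36 (SE 0.15) at 3 h, 0.18 at 6 h and -1.83 at 9 h. It differed by 2.54 between 6 h and 3 h, and by -2.01 between 9 h and 6 h. The range of the 4 time means, 2.54, was larger than in 99.1% of kept probes. Gclm was selected for its swing, so this rank is a description only.

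Gclc, the catalytic subunit of the same enzyme, showed no such swing. Its level was -1.84, -1.80 and -1.83 at 0.5 h, -1.83, -1.81 and -1.88 at 3 h, -1.74, -1.83 and -1.73 at 6 h, and -1.86, -1.73 and -1.76 at 9 h. The arrays of all 4 times overlapped. Its 4 time means spanned 0.07, a range larger than in 1.25% of kept probes, and no comparison was called, with limma's moderated F test over the 4 times at an adjusted p of 0.594. With a smooth trend on G and C count removed from each array, a step chosen after seeing the data, Gclc stood 0.24 higher at 9 h than at 0.5 h and was called (limma adjusted p = 0.0184), against 0.04 without that step.

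Other probes with few G and C bases shared the signs of Gclm's larger differences in their median, though not every such probe did. Among 199 probes with 10 to 14 G or C bases detected well above background on each of the 12 arrays, the median difference from 0.5 h was -0.86 at 3 h, -0.11 at 6 h and -0.62 at 9 h. It was 0.73 between 6 h and 3 h, and -0.55 between 9 h and 6 h. Of these 199 probes, 99% had a lower mean at 3 h than at 0.5 h, and 1.51% had a lower mean at 6 h than at 3 h. In 674 such probes with 15 to 19 G or C bases the medians relative to 0.5 h were -0.34 at 3 h and -0.25 at 9 h, and 0.19 between 6 h and 3 h. In 5523 probes with 30 to 34 G or C bases the signs were opposite, with medians relative to 0.5 h of 0.12 at 3 h and 0.21 at 9 h, then -0.14 between 6 h and 3 h, and 0.19 between 9 h and 6 h.

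Only Oxnad1 shared with Gclm both the count of 9 G or C bases and a signal well above background on all 12 arrays. Its differences from 0.5 h were -2.85 at 3 h and -2.37 at 9 h, with 2.17 between 6 h and 3 h, and -1.69 between 9 h and 6 h. At 6 h it stood at -0.68 relative to 0.5 h, where Gclm stood at 0.18. Its 0.5 h arrays were at -4.45, -4.07 and -2.19, and without 0.5 h array 3 the differences of Oxnad1 from 0.5 h were -2.16 at 3 h, 0.01 at 6 h and -1.68 at 9 h. A further 3 probes with 9 G or C bases, for transcripts listed only by accession, were kept. They were well above background on 3 or 4 of the 12 arrays and passed the filter through the 6 h arrays, where they were bright, so their swing was partly a condition of being kept. Over all 16 probes on the array with at most 9 G or C bases, kept or not, the median difference from 0.5 h was -2.32 at 3 h and -2.08 at 9 h, but 6 h stood at -0.22 relative to 3 h. Among the 25455 probes well above background on each array, 894 (3.51%) fell at 3 h, rose at 6 h and fell again at 9 h, each step with a limma adjusted p under 0.05. This is the course for which Gclm was selected, and the shares describe the other probes only. It was met by 126 of the 199 probes with 10 to 14 G or C bases (63.3%), by 13.4% with 15 to 19 and by 1.81% with 30 to 34. When a smooth trend on G and C count was removed in the same way, the differences of Gclm from 0.5 h were -0.88 at 3 h and -0.67 at 9 h, with 0.97 between 6 h and 3 h, and -0.76 between 9 h and 6 h. With normexp background correction the same differences of Gclm were -1.2, -0.04, 1.58 and -0.41. How closely the smooth trend followed probes with so few G and C bases was not tested. The 5 kept probes with 9 G or C bases, Gclm among them, had a median difference from 0.5 h of -2.36 at 3 h, the value of Gclm itself. At 9 h their median was -1.89, both before the trend was removed. In 8 probes with 10 such bases, well above background on all 12 arrays, these medians were -1.84 and -1.15. The 5 include Gclm and 3 probes whose swing was partly a condition of being kept, so their medians cannot serve as a separate measure. How far what was left in Gclm after that removal went with base composition was not tested. Slide and time cannot be told apart for 0.5, 3 and 9 h, and the part of base composition in the course of Gclm was not tested further.

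**Figure D1:**
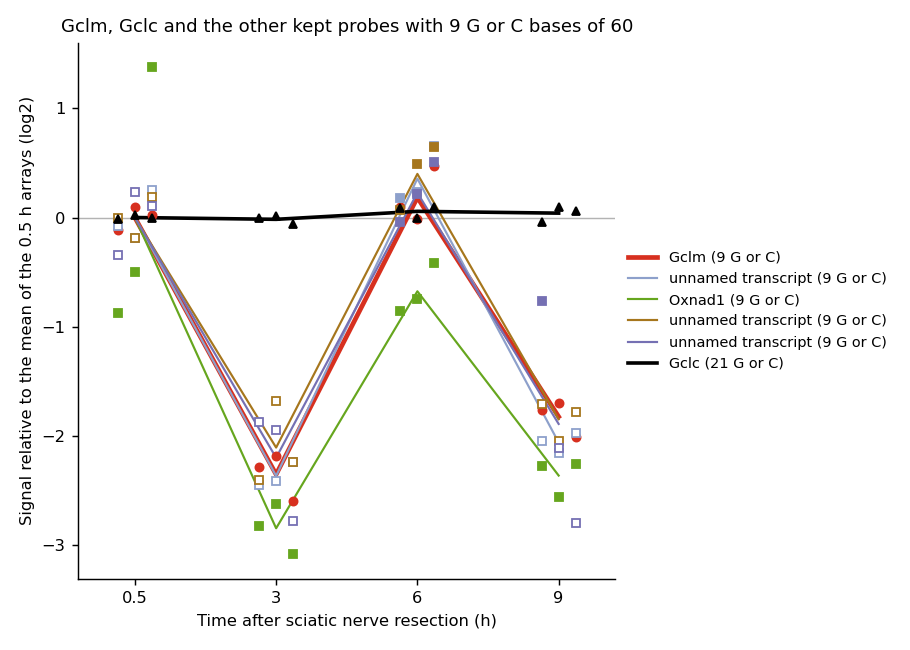
Signal on each of the 12 arrays relative to the probe's own mean at 0.5 h (log2, vertical axis) by time after resection (horizontal axis), for Gclm (red), Gclc (black) and the 4 other kept probes with 9 G or C bases, with lines through the time means and open symbols where the probe was not well above background. Gclm and the 4 probes are low at 3 and 9 h and high at 0.5 and 6 h, while Gclc stays near 0. The 3 unnamed transcripts passed the filter through the 6 h arrays, where they were bright, so their swing was partly a condition of being kept.

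**Figure D2:**
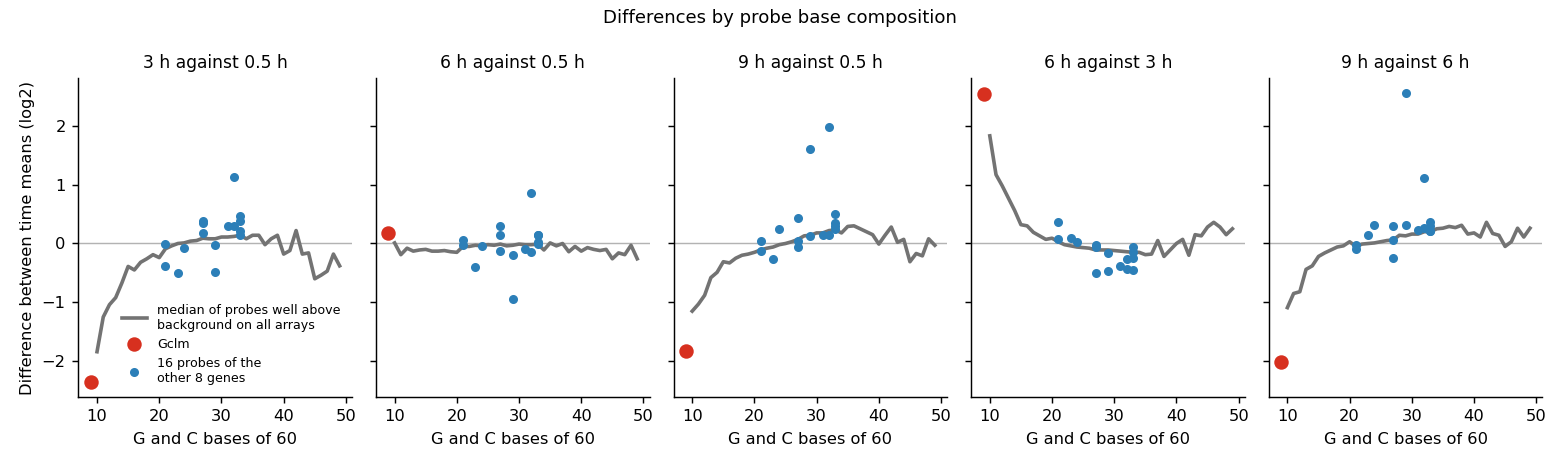
Difference between time means (log2) by the number of G and C bases in the 60-base probe, in 5 comparisons, with the grey line at the median of probes well above background on all 12 arrays (counts of bases shared by at least 5 probes), Gclm in red and the 16 probes of the other 8 genes in blue. The line bends towards Gclm at the left of every panel except 6 h against 0.5 h, and the 16 probes have 21 to 33 G or C bases, where the line lies closer to 0.

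The 5 genes whose levels were most like those of Gclm over the 12 arrays had probes with 21 to 32 G or C bases. By Pearson correlation, 4 of the 5 are listed by identifiers and 1, Serpinb6b, encodes a serine protease inhibitor. Serpinb6b correlated with Gclm at r = 0.993, its probe had 26 G or C bases, and its mean level was 1.23 at 0.5 h, -0.18 at 3 h, 1.29 at 6 h and 0.04 at 9 h. The other 4 correlated at 0.992 to 0.994.

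The promoter of Gclm holds a match to the core of an antioxidant response element. The motif searched was TGACNNNGC on either strand, in the 300 bases from 250 before to 50 after each start site (RefSeq, assembly GRCr8), and 12.1% of 33469 promoters held it. Of the 9 genes 8 had 9 promoters in the table, and 3 of these held a match, in Gclm, in 1 of the 2 promoters of Txnrd1 and in Nfe2l2. No match overlapped the AP-1 sites TGACTCA and TGAGTCA. The matches of Gclm and Txnrd1 are shown on the strand of the gene, with the element in capitals. That of Nfe2l2, which began at base 39 from the start site, is not shown.

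Gclm, chr2:213031953-213031981, 172 bases before the start: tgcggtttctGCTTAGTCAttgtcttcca
Txnrd1, chr7:22755964-22755992, 78 bases before the start: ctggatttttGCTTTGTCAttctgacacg

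Both elements run on the opposite strand to the gene. A match describes these letters only and says nothing of binding.

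Among the 16 probes of the 8 other genes, 12 differed over the 4 times by limma's moderated F test (adjusted p under 0.05), against a background of 43.9% of all kept probes. At 3 h, 5 of the 16 were called higher than at 0.5 h and 2 lower, against backgrounds of 11.3% and 11.7%, or 23.1% in either direction. In that comparison the arrays of 9 of the 16 probes did not overlap, against a background of 41.2%. At 6 h none was called higher than at 0.5 h and 2 were lower, against 4.07% and 8.7% (12.8% in either direction), and 6 did not overlap, against 36.8%. At 9 h, 6 were called higher than at 0.5 h and 1 lower, against 22% and 10.9% (32.9% in either direction), and 10 did not overlap, against 48.4%. Between 6 h and 3 h, 1 was higher and 3 lower, against 5.49% and 5.79% (11.3% in either direction), and 7 did not overlap, against 36.2%. Between 9 h and 6 h, 5 were higher and none lower, against 18.2% and 6.3% (24.5% in either direction), and 10 did not overlap, against 44.1%. The number called was above what the background share of 16 probes would give in every comparison except 6 h with 0.5 h, but several of these probes read the same gene. By the brightest probe of each gene this was so only at 3 h against 0.5 h and between 6 h and 3 h. The median of the 16 differences from 0.5 h was 0.19 at 3 h, -0.02 at 6 h and 0.19 at 9 h, against 0.04, -0.03 and 0.10 over all kept probes.

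Single arrays and the scaling moved these counts. The 7 calls at 3 h became 4 without 0.5 h array 2 or 3 h array 3, and the 2 at 6 h became 1 without 6 h array 1 or 3. Of the 4 calls between 6 h and 3 h, 1 was left without 3 h array 1 or 3 or 6 h array 2 and none without 6 h array 3, and the 5 between 9 h and 6 h became 3 without that array or 9 h array 2 and 8 without 3 h array 2. Of all probes called at 9 h relative to 6 h, 74.3% were higher, against 43.9% with quantile, 34.2% with median and 51.8% with cyclic loess scaling. Median scaling called 1 of the 16 probes higher and 3 lower in that comparison, so the direction of these counts rests on the scaling. Probes of the same gene share their transcript, and with the brightest probe of each of the 8 genes 2 were higher and 1 lower at 3 h, and 2 were higher and none lower at 9 h, relative to 0.5 h. Over all 29627 genes by their brightest probe, 23.2% were called at 3 h and 33.2% at 9 h, so that the 3 of 8 at 3 h lay above that share and the 2 of 8 at 9 h below it. Between 6 h and 3 h 2 of the 8 were called (25%), above 11.3% of all genes. Between 9 h and 6 h 2 of the 8 were called (25%), the same share as the 25% of all genes.

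The probes of these genes were also richer in G and C than most, with a median of 29 of 60 bases against 26 over all kept probes. Of the 7 probes with 30 to 34 G or C bases, 3 were higher at 3 h and 3 at 9 h against 0.5 h, where 15.1% and 37.6% of all kept probes of that composition were. With normexp in place of the scanner software's background subtraction, 1 of the 25 calls held, that of Hmox1 at 9 h against 0.5 h (limma adjusted p = 0.0404), and 493 probes of the whole array were called in that comparison, against 11472.

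**Figure D3:**
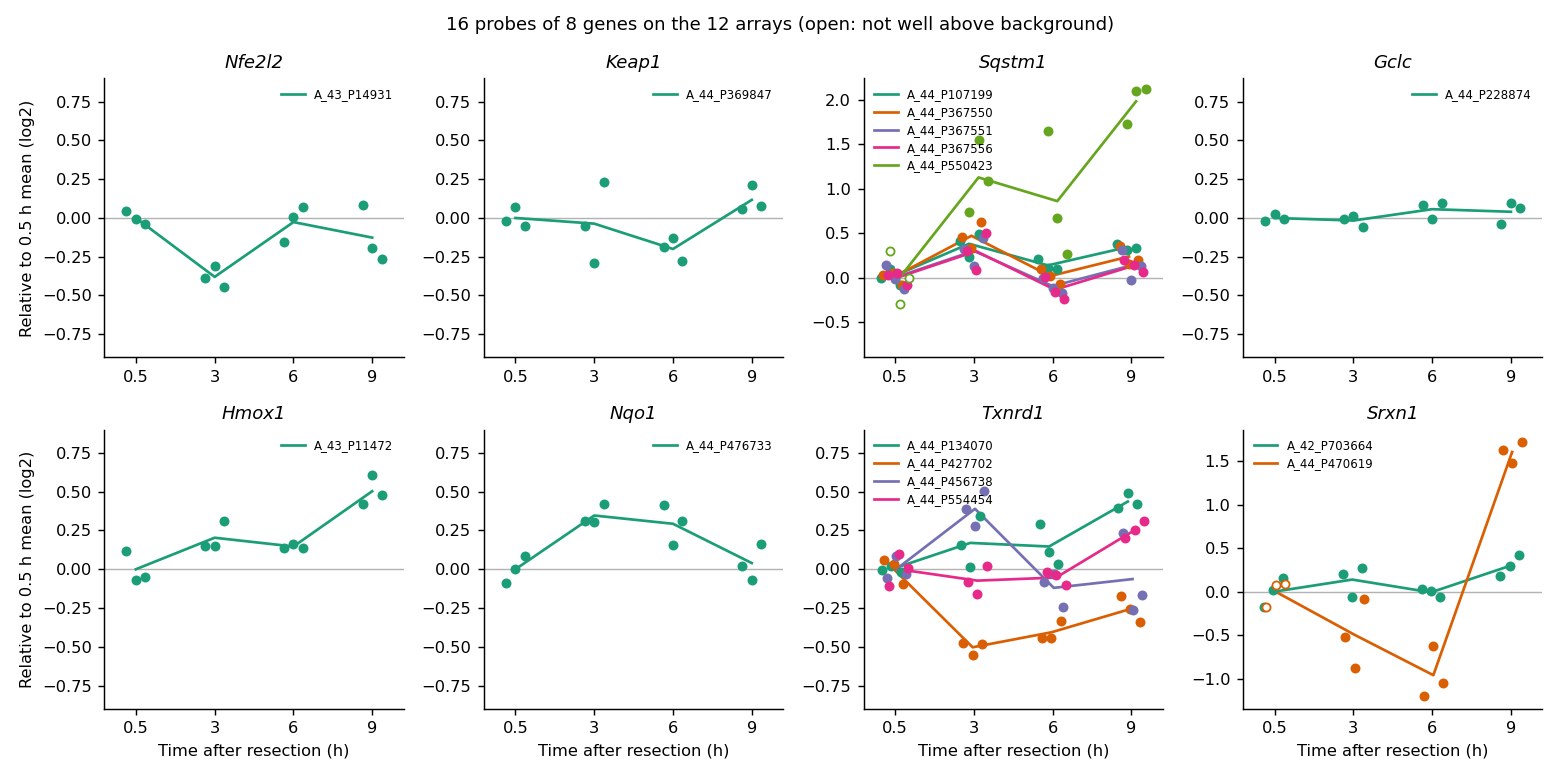
Signal of the 16 probes of the 8 other genes on each array relative to the probe's own mean at 0.5 h (log2) by time after resection, with lines through the time means, 1 panel per gene and open symbols where a probe was not well above background. Probes of Sqstm1, Txnrd1 and Srxn1 part within the gene, and Nfe2l2 is lowest at 3 h.

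Of the regulators, Nfe2l2 was lower at 3 h and Keap1 was not called in any comparison. Nfe2l2 had a level of 2.69, 2.64 and 2.61 at 0.5 h, 2.26, 2.34 and 2.20 at 3 h, 2.49, 2.65 and 2.72 at 6 h, and 2.73, 2.45 and 2.38 at 9 h. All 3 h arrays lay below all arrays of the other times. The difference was -0.38 (SE 0.10, limma adjusted p = 0.0201) at 3 h against 0.5 h and 0.36 (adjusted p = 0.0442) at 6 h against 3 h, arrays that share a scan day. At 9 h against 0.5 h it was -0.13 (adjusted p = 0.34). The call at 3 h ended without 0.5 h array 1 or 2 or 3 h array 1 or 3 (limma adjusted p 0.0501 to 0.0615), and with median scaling. The call at 6 h against 3 h ended without any 1 of 9 of the 12 arrays, at adjusted p-values of 0.057 to 0.16, with median scaling and with the trend on G and C count removed, and held without 9 h array 1 or 3 or 6 h array 1.

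Keap1, the adaptor that hands Nrf2 to the Cul3 ubiquitin ligase, had a level of 1.14, 1.23 and 1.11 at 0.5 h, 1.11, 0.87 and 1.39 at 3 h, 0.97, 1.03 and 0.88 at 6 h, and 1.22, 1.37 and 1.24 at 9 h. The 3 h arrays spanned the range of all other arrays. Its largest difference was 0.32 (SE 0.12, limma adjusted p = 0.0719) at 9 h against 6 h.

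Sqstm1 encodes p62, an autophagy receptor that binds Keap1 and is itself a target of Nrf2. It was the gene with most probes, 5, of which 4 lay on chromosome 10 and 1 (A_44_P550423) was not mapped. On its brightest probe, A_44_P367550, the level was 4.01, 4.03 and 3.90 at 0.5 h, 4.44, 4.31 and 4.6 at 3 h, 4.08, 4.0 and 3.91 at 6 h, and 4.34, 4.13 and 4.18 at 9 h. All 3 h arrays lay above all 0.5 and 6 h arrays, and the 9 h arrays reached into the range of 3 h. The difference was 0.47 (SE 0.09, 1.39-fold, limma adjusted p = 0.00501) at 3 h against 0.5 h, and -0.45 (adjusted p = 0.0103) at 6 h against 3 h, a call that ended without 6 h array 3 (adjusted p = 0.0504).

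The differences of the 3 other mapped probes had the same signs in these comparisons, and not all of them were called. At 3 h against 0.5 h, A_44_P107199 was higher by 0.38 (limma adjusted p = 0.00779), while A_44_P367551 and A_44_P367556 were each at 0.30 and not called (adjusted p 0.0844 and 0.0698). At 6 h against 3 h, A_44_P367556 was called at -0.44 (adjusted p = 0.0294), a call that ended without 3 h array 1 or 3 or 6 h array 2 or 3 (adjusted p 0.0784 to 0.116), with quantile or cyclic loess scaling, and with the trend on G and C count removed (-0.34, adjusted p = 0.0503). At 9 h against 0.5 h only A_44_P107199 of the mapped probes was called (0.34, adjusted p = 0.00902), and this call ended when the trend on G and C count was removed (0.12, adjusted p = 0.24) and with median scaling (0.23). The unmapped probe A_44_P550423 was dim, at 12.9 to 20.04 signal units at 0.5 h, where every array had it within background, 26.37 to 49.18 at 3 h, 21.28 to 51.86 at 6 h and 55.5 to 70.62 at 9 h. It was called higher at 3 h and 9 h against 0.5 h (limma adjusted p = 0.0366 and 0.00203), and no fold is given because its bound was under 1. The call at 3 h ended without 0.5 h array 2 or 3, 3 h array 2 or 3 or 9 h array 2 (adjusted p 0.0505 to 0.108) and with the trend on G and C count removed (adjusted p = 0.0591), and with a common detection floor neither call held. Probe A_44_P550423 was also called higher at 9 h than at 6 h, by 1.12 (limma adjusted p = 0.0347). That call ended with quantile, median and cyclic loess scaling, with a common detection floor and with the trend on G and C count removed. It ended too without 6 h array 2 or 3 or 9 h array 2 or 3 (adjusted p 0.0913 to 0.126).

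Srxn1, sulfiredoxin, reduces overoxidised peroxiredoxins, and its 2 probes had unlike courses. Probe A_42_P703664 had a level of -2.74, -2.55 and -2.41 at 0.5 h, -2.36, -2.63 and -2.29 at 3 h, -2.53, -2.56 and -2.63 at 6 h, and -2.39, -2.27 and -2.15 at 9 h. The 9 h arrays lay above all 0.5 and 6 h arrays but overlapped those of 3 h, and the difference at 9 h against 0.5 h, 0.29 (SE 0.11), was not called (limma adjusted p = 0.0665). Probe A_44_P470619 had a level of -5.39, -5.13 and -5.12 at 0.5 h, where every array had it within background, -5.73, -6.09 and -5.30 at 3 h, -6.41, -5.84 and -6.26 at 6 h, and -3.59, -3.74 and -3.50 at 9 h. Its 9 h arrays stood apart above all others. It was 5.89-fold higher at 9 h than at 6 h (log2 2.56, SE 0.20, limma adjusted p = 2.29e-05) and at least 2.35-fold higher at 9 h than at 0.5 h (adjusted p = 0.000439). With normexp the log2 difference of probe A_44_P470619 between 9 h and 6 h was 1.18 and not called (adjusted p = 0.777), and with a common detection floor it was 1.1. The call of a lower level at 6 h against 0.5 h (adjusted p = 0.0146) rests on 0.5 h signals within background.

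The ratio of the 2 Srxn1 probes within an array differed over the times, with a range of time means of 2.26 and an exact permutation p of 0.000195 (two-sided, over 15400 divisions of the arrays, adjusted over 17 pairs 0.00331). Probes of 1 gene were compared in this way in 17 pairs, 10 in Sqstm1, 6 in Txnrd1 and 1 in Srxn1. In 14 of the 17 pairs the ratio differed over the times at an adjusted exact permutation p under 0.05. The pairs that did not were 3 among the mapped probes of Sqstm1, with adjusted p-values of 0.0524, 0.0536 and 0.925. With normexp background correction 2 of the 17 pairs differed. Pairs of Sqstm1 and of Txnrd1 share probes, so the 17 are not independent, and no share for pairs of other genes is given. Among the 17 are pairs with A_44_P550423 or A_44_P470619, which were within background at 0.5 h, and with the Txnrd1 probe A_44_P427702, mapped to the opposite strand.

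Txnrd1, cytosolic thioredoxin reductase, keeps thioredoxin reduced with NADPH, and its 4 probes did not move together. On A_44_P554454 the level was 0.38, 0.59 and 0.50 at 0.5 h, 0.41, 0.33 and 0.51 at 3 h, 0.47, 0.45 and 0.39 at 6 h, and 0.69, 0.74 and 0.80 at 9 h. Only the 9 h arrays lay apart, above all others. The difference was 0.25 (SE 0.07, 1.19-fold, limma adjusted p = 0.0206) at 9 h against 0.5 h and 0.31 (adjusted p = 0.01) at 9 h against 6 h. The first of these calls ended without 0.5 h array 1 or 9 h array 2 or 3 (adjusted p 0.0514 to 0.0689), and both ended with median scaling. Probe A_44_P134070, of which 34 bases were mapped, also rose at 9 h, by 0.43 against 0.5 h (limma adjusted p = 0.0062) and by 0.29 against 6 h (adjusted p = 0.0462). The second of these calls ended without any 1 of 9 of the 12 arrays (adjusted p 0.0601 to 0.163), with median scaling (0.08) and with the trend on G and C count removed (0.22, adjusted p = 0.0851).

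The other Txnrd1 probes differed from these. A_44_P456738, mapped over 1879 bases, was higher at 3 h than at 0.5 h by 0.39 (SE 0.12, limma adjusted p = 0.046) and lower at 6 h than at 3 h by -0.51 (adjusted p = 0.0276). Its call at 3 h ended without any 1 of 10 of the 12 arrays (adjusted p 0.053 to 0.13) and with the trend on G and C count removed (adjusted p = 0.0846), and that at 6 h when 3 h array 1 or 3 or 1 of the 6 h arrays was left out (adjusted p 0.0509 to 0.111). Probe A_44_P427702 lay on the plus strand, opposite to the 3 others, and its accession matched no current gene. Its level was -1.68, -1.70 and -1.83 at 0.5 h, -2.21, -2.29 and -2.22 at 3 h, -2.18, -2.18 and -2.07 at 6 h, and -1.91, -1.99 and -2.08 at 9 h. All 9 later arrays lay below the 0.5 h arrays. It was lower by -0.50 (SE 0.07, limma adjusted p = 0.000863) at 3 h, by -0.40 (adjusted p = 0.00618) at 6 h and by -0.26 (adjusted p = 0.0163) at 9 h, each against 0.5 h, and the call at 9 h ended without 0.5 h array 1 or 2 or 9 h array 3 (adjusted p 0.0525 to 0.0598) and with the trend on G and C count removed (-0.15, adjusted p = 0.107). Whether this probe reads Txnrd1 or an RNA of the other strand cannot be told from the files.

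Of the 2 targets with 1 probe each, Hmox1 was higher at 9 h and Nqo1 at 3 h. Hmox1, haem oxygenase 1, breaks haem down to biliverdin, carbon monoxide and iron, and its probe was spotted 10 times on each array. Its level was -0.74, -0.93 and -0.91 at 0.5 h, -0.71, -0.71 and -0.55 at 3 h, -0.72, -0.70 and -0.72 at 6 h, and -0.44, -0.25 and -0.38 at 9 h. The 9 h arrays lay above all others, and the 3 and 6 h arrays overlapped each other and lay above the 0.5 h arrays. The difference was 0.50 (SE 0.08, 1.42-fold, limma adjusted p = 0.00114) at 9 h against 0.5 h and 0.36 (1.28-fold, adjusted p = 0.00656) at 9 h against 6 h. At 3 h and 6 h against 0.5 h it was 0.21 and 0.15 and not called (adjusted p 0.0772 and 0.238). The Hmox1 probe has 33 G or C bases. With the trend on G and C count removed, the difference at 9 h was 0.28 against 0.5 h (adjusted p = 0.013) and 0.15 against 6 h (adjusted p = 0.145), so that the call between 9 h and 6 h ended, as it did with median scaling (0.15).

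Nqo1 reduces quinones by transfer of 2 electrons. Its level was -0.40, -0.31 and -0.23 at 0.5 h, 0.00, -0.01 and 0.11 at 3 h, 0.10, -0.16 and 0.00 at 6 h, and -0.29, -0.38 and -0.15 at 9 h. The 3 h arrays lay above all 0.5 and 9 h arrays, and the 9 h arrays overlapped those of 0.5 h. The difference was 0.35 (SE 0.09, 1.27-fold, limma adjusted p = 0.0183) at 3 h against 0.5 h, a call that ended without 0.5 h array 1 or 3 h array 3 (adjusted p 0.0591 and 0.058). At 6 h against 0.5 h it was 0.29 (adjusted p = 0.0555) and at 9 h against 0.5 h 0.04 (adjusted p = 0.746). With the trend on G and C count removed Nqo1 was called higher at 6 h than at 0.5 h (0.29, adjusted p = 0.045) and lower at 9 h than at 6 h (-0.32, adjusted p = 0.0178).

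The 5 genes whose levels correlated best with Hmox1 over the 12 arrays were Gltscr2 (r = 0.971), Slc12a4 (r = 0.961), Grin2b (r = 0.955) and 2 genes listed by identifiers (r = 0.956 and 0.950). All 5 had 31 to 33 G or C bases. Grin2b and the 2 genes listed by identifiers were well above background on 9 of the 12 arrays, so their correlations include values within background. Slc12a4, a potassium and chloride cotransporter, had a mean level of 1.87 at 0.5 h, 1.96 at 3 h, 1.91 at 6 h and 2.33 at 9 h.

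Around these 9 genes, 136 other genes of the pathway were listed in 6 lists, of which 122 were on the array and 119 were tested by their brightest kept probe. Relative to 0.5 h, 28 of the 119 were higher and 6 lower at 3 h, 7 were higher and 4 lower at 6 h, and 21 were higher and 7 lower at 9 h. Over all 29627 genes the counts were 3173 higher and 3700 lower at 3 h, 1157 higher and 2753 lower at 6 h, and 6630 higher and 3206 lower at 9 h. The median difference of the 119 genes was 0.11 at 3 h, 0.04 at 6 h and 0.09 at 9 h, against 0.03, -0.04 and 0.10 over all genes. With the trend on G and C count removed, 14 of the 119 were higher and 4 lower at 3 h, and 15 were higher and 7 lower at 9 h. In that setting 15.1% and 18.5% of the pathway genes were called, below 19.9% and 29.1% of all genes, whereas without it the share at 3 h was 28.6%, above 23.2% of all genes, and that at 9 h 23.5%, below 33.2%. Between 6 h and 3 h, 2 were higher and 5 lower (5.88% called), against 1696 and 1659 of all genes (11.3%). Between 9 h and 6 h, 6 were higher and 2 lower (6.72%), against 5639 and 1754 of all genes (25%). Of the 34 genes called at 3 h, 10 to 19 remained called when any 0.5 h array or 3 h array 1 or 3 was left out, the fewest without 3 h array 1. Of the 28 at 9 h, 18 remained without 0.5 h array 2 and 16 without 9 h array 3. Of the 11 at 6 h, 2 to 5 remained without any 1 of the 0.5 and 6 h arrays, the fewest without 6 h array 3. Of the 7 between 6 h and 3 h, 2 or 3 remained without 3 h array 1 or 3 or 6 h array 2 or 3. Of the 8 between 9 h and 6 h, 1 remained without 6 h array 3, 2 without 9 h array 3, and 4 or 5 without 6 h array 1 or 2. With normexp background correction 4 pathway genes were called at 3 h, none at 6 h and 2 at 9 h.

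Glutathione transferases, which join glutathione to electrophiles, held the largest share of higher genes among the 6 lists at 3 h and at 9 h. Of 19 tested, 10 were higher and 2 lower at 3 h, and 9 were higher and none lower at 9 h, against 0.5 h. Over all genes 10.7% were higher and 12.5% lower at 3 h, and 22.4% were higher and 10.8% lower at 9 h. With the trend on G and C count removed 5 were higher and 1 lower at 3 h and 6 were higher and none lower at 9 h, and with median scaling 10 and 1 at 3 h and 4 and none at 9 h. Gstm2 averaged -0.67 ± 0.12 at 3 h, -0.62 ± 0.10 at 6 h and -0.43 ± 0.08 at 9 h, against -1.13 ± 0.21 at 0.5 h (SD, n = 3 each), with limma adjusted p-values of 0.0137, 0.0151 and 0.00135, of which that at 6 h ended without 6 h array 3 (adjusted p = 0.0574). Mgst2, a microsomal transferase, averaged -0.40 ± 0.20 at 3 h, against -1.13 ± 0.16 at 0.5 h (limma adjusted p = 0.00186). Gstm3 averaged -3.77 ± 0.09 at 9 h, against -4.82 ± 0.10 at 6 h (2.06-fold, limma adjusted p = 7.47e-05). With normexp this log2 difference of Gstm3 was 0.69 and not called (limma adjusted p = 0.899). Transferase genes resemble each other closely, so probes may bind more than 1 of them.

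Of 25 other genes of glutathione synthesis, transport and recycling, 1 was higher and 1 lower at 3 h, and 4 were higher and 2 lower at 9 h, against 0.5 h. These shares lay below the 23.2% of all genes called at 3 h and the 33.2% called at 9 h. Gpx3, a secreted glutathione peroxidase, was higher by 0.87 at 6 h and by 0.89 at 9 h against 0.5 h (limma adjusted p = 0.0242 and 0.00964), and the call at 6 h ended without 0.5 h array 1 or 2 or 6 h array 2 or 3 (adjusted p 0.0604 to 0.0849). Gpx7 was lower at 3 h, by -0.55 against 0.5 h (limma adjusted p = 0.00419). Oplah, which returns oxoproline to glutamate, was higher by 0.58 at 9 h against 0.5 h (limma adjusted p = 0.0183) and by 0.61 against 6 h (adjusted p = 0.0167). The first of these Oplah calls ended with the trend on G and C count removed (0.36, adjusted p = 0.0533) and without 0.5 h array 2 or 9 h array 2 or 3 (adjusted p 0.0528 to 0.0559). The second ended with median scaling and without 6 h array 3 or 9 h array 2 or 3 (adjusted p 0.0501 to 0.0693). Cbs, which opens the route from homocysteine to cysteine, was higher by 0.58 at 9 h against 0.5 h (limma adjusted p = 0.0416), a call that ended with the trend on G and C count removed, under each other scaling tried and without any 1 of 11 of the 12 arrays (adjusted p 0.0508 to 0.122).

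Of 21 further regulators and partners of Nrf2, 2 were higher and none lower at 3 h, none was called at 6 h, and 2 were higher and 1 lower at 9 h, against 0.5 h. Each share lay below that of all genes called, which was 23.2% at 3 h, 13.2% at 6 h and 33.2% at 9 h. Maff, a small Maf protein, was 2.90-fold higher at 9 h than at 6 h (log2 1.54, SE 0.40, limma adjusted p = 0.0181). The Maff call ended with quantile scaling (0.96), with cyclic loess (1.06), with a common detection floor (0.04), and without 6 h array 1 or 3 or 9 h array 3 (adjusted p 0.0524 to 0.0672). Gsk3b, a kinase that marks Nrf2 for destruction, was lower at 9 h than at 0.5 h by -0.50 (limma adjusted p = 0.0224), a call that ended without 0.5 h array 1 or 2 or 9 h array 3 (adjusted p 0.0599 to 0.0779). Bach1, which competes with Nrf2 for its elements, was called higher at 9 h against 0.5 h at 0.42 (limma adjusted p = 0.0251), but was at -0.03 with cyclic loess scaling. It was also no longer called without 0.5 h array 2 or 3 or 9 h array 2 or 3 (adjusted p 0.0662 to 0.0854).

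Of 19 thioredoxin, peroxiredoxin and superoxide enzymes, 6 were higher and 2 lower at 3 h, and 2 were higher and 3 lower at 9 h, against 0.5 h. The share called lay above the 23.2% of all genes at 3 h and below the 33.2% at 9 h. Prdx6 averaged 0.48 ± 0.03 at 3 h and 0.45 ± 0.16 at 9 h, against 0.05 ± 0.06 at 0.5 h (SD, n = 3 each; limma adjusted p = 0.00447 and 0.00477), and both calls ended with the trend on G and C count removed. Txnip, an inhibitor of thioredoxin, was called lower at 3 h (-0.66, limma adjusted p = 0.0244) and 9 h (-0.90, adjusted p = 0.00425) against 0.5 h. Its probe has 11 G or C bases, and with the trend removed it stood at 0.52 (adjusted p = 0.00681) and 0.07 (adjusted p = 0.647), so its direction turned. The call at 3 h also ended without 0.5 h array 1 or 3 or 3 h array 1 or 3 (adjusted p 0.0641 to 0.0784).

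Of 13 haem, iron and NADPH genes, 2 were higher and 1 lower at 3 h, none was higher and 2 lower at 6 h, and none was called at 9 h, against 0.5 h. Of all genes 23.2% were called at 3 h, 13.2% at 6 h and 33.2% at 9 h. Tkt, transketolase of the pentose phosphate pathway, was lower at 6 h than at 0.5 h by -0.32 (limma adjusted p = 0.0105) and lower at 6 h than at 3 h by -0.25 (adjusted p = 0.0313). The call of Tkt between 6 h and 0.5 h ended with quantile and median scaling (adjusted p 0.0642 and 0.0501). That between 6 h and 3 h ended with every other scaling tried, with the trend on G and C count removed (-0.20, adjusted p = 0.0739) and without 3 h array 1 or 3 or any 1 of the 6 h arrays (adjusted p 0.0527 to 0.108). Of 22 other targets of Nrf2, 7 were higher and none lower at 3 h, and 4 were higher and 1 lower at 9 h, against 0.5 h. The share of these 22 that was called lay above that of all genes at 3 h and below it at 9 h. Aldh3a1, an aldehyde dehydrogenase, was higher at 9 h than at 0.5 h by 0.54 (limma adjusted p = 0.00326). Akr1c14, a hydroxysteroid dehydrogenase, was within background on every 0.5 h array, and was at least 1.18-fold higher at 9 h (limma adjusted p = 0.0136), a call that ended with quantile scaling and with a common detection floor.

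**Figure D4:**
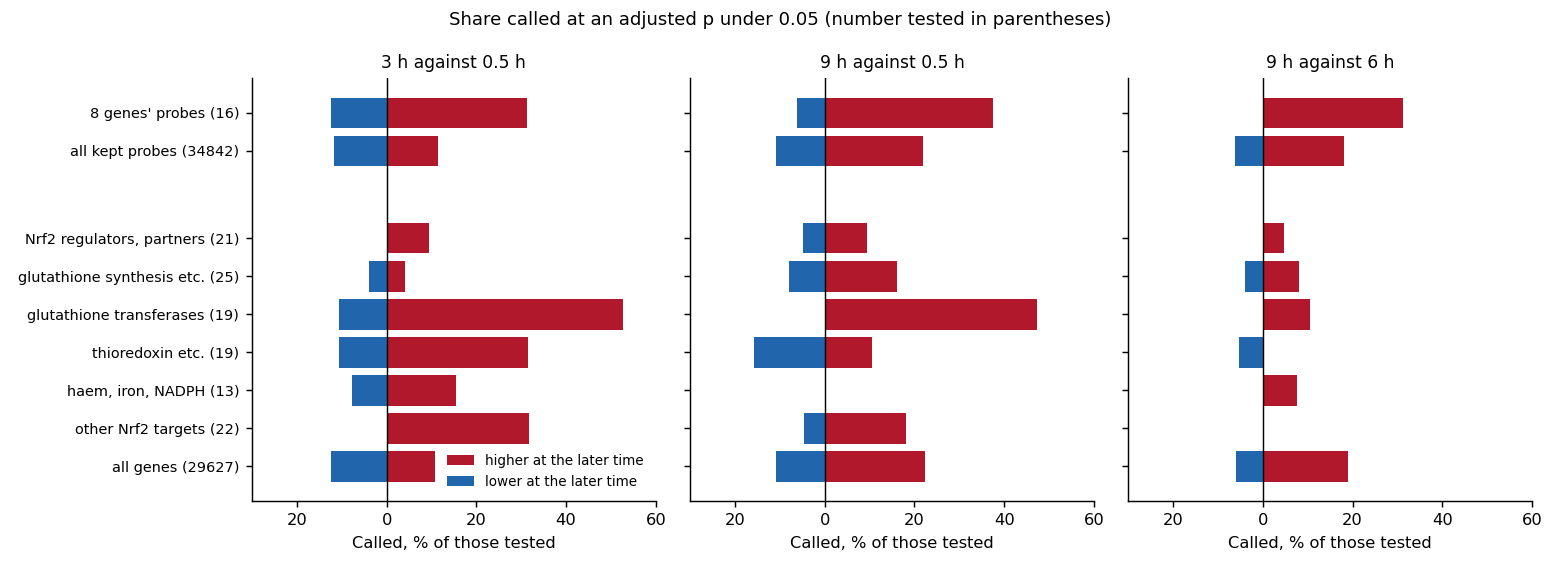
Share of probes or genes called at a limma adjusted p under 0.05, in percent of those tested, to the right of 0 where higher and to the left where lower at the later time, in 3 comparisons. The upper pair of bars sets the 16 probes of the 8 genes against all kept probes, and the lower bars set the 6 pathway lists against all genes. Glutathione transferases reach furthest to the right at 3 h and 9 h against 0.5 h.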

How the data were processed

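Spot values were read from the 12 deposited 1-colour Agilent files (Feature Extraction 10.5.1.1, per the file headers). Per the file headers, the values used are intensity, linear and already background-subtracted by that software. The authors deposited a table of the whole series too, and it matched the array files exactly (largest difference 0). Per the labels' protocols, RNA was amplified and labelled with Cy3. The deposited values carry no scaling between arrays that a header records.

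Control spots (1639 of 45018) and 76 to 218 outlier spots per array were left out, and no spot was saturated. Log2 values of the deposited signals were set relative to their array's 75th percentile (1793 to 2149 units), and spots of 1 probe were averaged. limma 3.58.1 (R 4.3.3) then fitted 4 time means to each of 34842 probes, with Benjamini-Hochberg adjustment within each of 5 comparisons and a call at 0.05. Where a time had a probe within background on all its arrays, "at least" sets the bright time's mean over a floor for the dim time, taken in each array as the dimmest detected probe or the probe itself, if brighter. Precision is limited by 3 arrays per time. The script was tested on simulated data.

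The members, lists and alternatives were chosen with earlier results of these data known. All probes of the 9 genes are reported. Per list and comparison, the rule allowed names for the 3 largest called differences without overlapping arrays, and the 5 genes most like Gclm and Hmox1. The alternatives were normexp, other scalings, filters, a common floor, 1 probe per gene, a trended variance, replicate and slide blocks, pairwise fits, leaving out arrays and, added after seeing the data, removal of the trend on G and C count.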

Additional observations from a re-analysis of the deposited data

How the results depend on the processing

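The number of arrays, the dim 0.5 h arrays and the coincidence of slide and time limit these results. With normexp background correction the probes called in the 5 comparisons (3, 6 and 9 h with 0.5 h, 6 h with 3 h, 9 h with 6 h) and by the F test were 704, 1, 493, 341, 168 and 749, the members' probes 0, 0, 1, 0 and 0, the pathway genes 4, 0, 2, 0 and 0, and the differing probe pairs 2. In that setting the direction of Srxn1 probe A_44_P470619 at 6 h relative to 0.5 h (0.22), Gstm3 at 6 h relative to 0.5 h (0.26) and Gsto2 at 6 h relative to 3 h (0.39) turned. Bach1 at 9 h relative to 0.5 h turned with cyclic loess (-0.03). With the G and C trend removed, Taldo1 at 3 h (0.01) and Txnip at 3 h (0.52) and 9 h (0.07) against 0.5 h and at 9 h with 6 h (0.48) turned, and 18 pathway genes (3 h with 0.5 h), 22 (9 h with 6 h) and 2 members' probes (6 h with 3 h) were called.

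Pathway genes called at 6 h relative to 3 h were 4 with quantile, median or cyclic loess scaling and with the replicate block, and 3 with only the arrays compared. At 9 h against 6 h they were 33 with median scaling, 5 with cyclic loess and 5 with only the arrays compared. At 6 h against 0.5 h cyclic loess called 7408 probes, 4 members' probes and 17 pathway genes. Without a filter 13215 probes were called at 3 h and 9937 at 6 h relative to 0.5 h. With only probes well above background on all arrays 5322 probes and 3 members' probes were called at 9 h relative to 6 h. With a common floor 1 member probe was called at 6 h relative to 0.5 h and 3 at 9 h relative to 6 h. With only the arrays compared 5246 and 2755 probes and 15 and 4 pathway genes were called at 3 and 6 h against 0.5 h, and 2 members' probes at 6 h relative to 3 h.

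Slide as a random block, with an estimated correlation of -0.26, called 16922, 10617, 20001, 10169, 14765 and 26042 probes, 12, 4, 7 and 13 members' probes (3 and 6 h with 0.5 h, 6 h with 3 h, and 9 h with 6 h) and 62, 36, 64, 33 and 27 pathway genes. The replicate numbers did not pair the arrays (correlations -0.14 to 0.22 for the same number, 4 of 12 arrays closest to their own). With the replicate block 2 members' probes were called at 6 h relative to 3 h and 3 at 9 h relative to 6 h.

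Leaving out 1 array in turn, in the same order of comparisons, the probes called ranged over 5246 to 8064, 2337 to 4619, 8875 to 11891, 1873 to 4042 and 5988 to 9071, and by the F test over 12283 to 14897. The members' probes ranged over 4 to 7, 1 to 3, 5 to 9, 0 to 5 and 3 to 8, and the pathway genes over 10 to 33, 2 to 11, 16 to 30, 2 to 9 and 1 to 11. Of single values of named genes under the alternatives, 2911 were scored as unchanged, 464 lost a call, 67 gained 1 and 8 turned direction. For the tested genes, unchanged means that a value kept its side of the threshold. A turn was counted only where the main fit or the alternative made a call, and the 2911 include values called in neither. Gclm was scored by size and not by the threshold, and 16 of its values moved by more than the spread within the times.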
